A study of Mus musculus with 6 samples.

Results

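The genes described here are 34 genes of myelinating oligodendrocytes, chosen by name as a set of myelin and mature oligodendrocyte genes. One of the symbols, Anln2, matched no gene of the annotation, and the other 33 were found among 55487 genes, passed the filter on low counts and were tested with 18237 genes in all. They were read in 6 libraries of whole cerebellum from male mice aged 14 days, each library from 1 animal. The KO group held 3 mice homozygous for a Galnt17 knockout allele (strain label Wbscr17KOKO, allele Galnt17tm1.1(KOMP)Vlcg), which came as sperm from the Knockout Mouse Project. Per the labels, homozygotes on C57BL/6 did not survive to birth, and the living ones came after crosses to B6C3 animals, the F1 hybrids of C57BL/6J with C3H/He. The WT group held 3 B6C3 mice. Galnt17, formerly Wbscr17, belongs to the enzymes that start mucin-type O-glycosylation. The comparison asked how the KO cerebellum differed from WT. The knockout allele and the breeding history differed together between the groups, so their parts in any difference cannot be told apart.

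Oligodendrocytes wrap axons in myelin, a stack of membrane rich in galactolipids and in a few very abundant proteins. Precursor cells first leave the cell cycle, then pass through a newly formed stage, and then switch on the myelin genes under transcription factors such as Myrf. Some genes come on late, when the sheath and the nodes of Ranvier between sheaths mature. At postnatal day 14 the mouse cerebellum is still being myelinated. Genes were grouped by role into 9 structural myelin proteins, 17 late maturation genes, 3 myelin lipid enzymes, 3 transcription factors and 2 axon-glia adhesion genes.

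Of the 33 measured members, 3 were higher in KO, 0 were lower and 30 did not pass edgeR's quasi-likelihood test at an adjusted p of 0.05. The 3 were Hapln2, Ermn and Cldn11. Among all genes tested, 0.784% were called higher and 0.872% lower, 1.66% in either direction. At an unadjusted p below 0.05, 12 members were higher (36.4%, against 8.57% of all genes). The members and the lists below were chosen with earlier results of these data known. Their shares beside those of all genes are thus descriptions and not tests. Most of the other members differed by little, on the same side: the log2 fold change was above 0 in 30 of 33 members (90.9%), against 48.5% of all genes. The median log2 fold change of the members was 0.13, a level 9.59% higher in KO, against -0.01 for all genes. In bulk tissue a larger number of oligodendrocytes, more RNA per oligodendrocyte and a difference in the tissue taken cannot be told apart. Where no setting is named, edgeR stands for the fit of all 6 libraries with TMM scaling and the filter on low counts. No member was called lower in that fit or in limma-voom. At an unadjusted p below 0.05, 1 member, Cntn1, was lower (3.03%, against 8.99% of all genes). Cntn1 was also called lower in DESeq2, and in edgeR with no filter on low counts or without WT replicate 1.

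The stretches upstream of the 3 genes that passed are shown so that letters known from factors of the myelin program can be looked for next to their starts. They come from RefSeq (GRCm38.p6) and are written on the strand of the gene, up to 250 bases before its annotated start. For Hapln2 the 72 bases next to the start were left out, since a longer transcript covers them.
Ermn (chr2:58052865-58053114, minus strand): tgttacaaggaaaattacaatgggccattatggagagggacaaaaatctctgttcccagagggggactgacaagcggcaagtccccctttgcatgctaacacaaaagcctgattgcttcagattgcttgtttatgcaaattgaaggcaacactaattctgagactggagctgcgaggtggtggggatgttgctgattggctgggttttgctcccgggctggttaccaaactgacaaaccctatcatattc
Hapln2 (chr3:88027584-88027761, minus strand): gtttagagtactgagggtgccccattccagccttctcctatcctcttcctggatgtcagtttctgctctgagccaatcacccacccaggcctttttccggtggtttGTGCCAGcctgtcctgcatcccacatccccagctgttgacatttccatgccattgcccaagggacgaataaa
Cldn11 (chr3:31149670-31149919, plus strand): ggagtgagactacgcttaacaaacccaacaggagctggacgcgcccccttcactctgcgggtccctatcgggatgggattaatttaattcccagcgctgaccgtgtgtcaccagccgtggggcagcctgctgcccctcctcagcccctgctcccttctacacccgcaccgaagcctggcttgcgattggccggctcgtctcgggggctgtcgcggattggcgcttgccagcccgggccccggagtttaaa
The capitals mark the letters of a MYRF motif, CTGGCAC, read on the other strand.

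The windows were searched on both strands for 2 core letter sets of SOX factors (ACAAAG and AACAAT), 2 of MYRF (CTGGCAC and CTGGTAC) and the TATA box (TATAAA), which did not overlap each other in these 3 windows. Hapln2 held CTGGCAC, 144 bases before the RefSeq start, and AACAAT, 57 bases before it in the stretch left out. That start lies inside the span given for the gene below, and AACAAT lies within the longer transcript. Neither Ermn nor Cldn11 held any of the 5. Of 26 members with a window in the table, 3 held CTGGCAC (Cnp, Hapln2 and Mag), 1 held CTGGTAC (Mog), 7 held ACAAAG, 4 held AACAAT and 3 held TATAAA. Over 27025 genes the shares were 4.83%, 2.11%, 18.6%, 10.9% and 14.3% in the same order. A match describes the letters in the window and is not a measured binding site.

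The libraries held 17111611 to 29840046 reads counted in genes, which puts members at 28 counts (Ninj2) or more in every library. Levels are given as CPM, the counts per gene after TMM scaling of the libraries to one size, and as mean ± SD of 3 animals. Galnt17 itself had 72, 80 and 63 counts in KO libraries, against 1119, 729 and 963 counts in WT libraries. Markers of cerebellar neurons were all present, and their summed level was 4980 to 5182 CPM in KO, against 4515 to 4912 CPM in WT. Libraries stood apart in 2 ways. Leaving out WT replicate 1 raised the calls over all genes to 959 higher and 962 lower, against 143 and 159 with every library. WT replicate 3 had 36.9 CPM of the transcription factor gene Tcf7l2, against 6.34 and 7.16 CPM in the other WT libraries and 6.46 to 7.37 CPM in KO. Its level of Tph2, a marker of serotonin neurons, was 6.61 CPM, against 0.993 to 1.17 CPM in KO and 1.47 and 1.57 CPM in the other WT libraries. The share of unmapped reads also differed with the group, at 13.8% to 17.2% in KO and 6.52% to 10.03% in WT, and its part in the results was not tested. Choroid plexus markers were lower in KO, with 9 of 12 called and a summed level of 47.0 to 503 CPM in KO, against 1201 to 2148 CPM in WT.

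Taken per length of exon, Mbp, which encodes the basic protein that holds the cytoplasmic faces of the membrane stack together, had the highest level of the members, at 830 CPM per kb in KO and 727 CPM per kb in WT. It made up 53.2% to 54.0% of the members' summed CPM in KO libraries, against 50.5% to 53.3% in WT libraries. Cnp, Cldn11, Mobp, Mal and Mog followed Mbp in this order per length. The lengths include exons shared with other genes, as over 63.5% of the length of Trf, so the levels of such genes may be understated. Ninj2 was the lowest, at 1.57 CPM per kb in KO and 1.88 CPM per kb in WT. Together the 33 members held 1.295% to 1.33% of the gene counts in KO libraries, against 1.16% to 1.18% in WT libraries, and these ranges did not overlap.

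Among structural myelin proteins, all 9 had a log2 fold change above 0 (8 without WT replicate 1), 1 was called higher, 0 lower, and 6 had KO libraries that were all above all WT libraries, which held for 11.5% of all genes. Their median log2 fold change was 0.19. Their summed level was 10734, 10716 and 10410 CPM in KO replicates 1 to 3, against 9366, 9493 and 9251 CPM in WT replicates 1 to 3.

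Cldn11, the claudin of the tight junctions between myelin layers (ENSMUSG00000037625, chromosome 3, 31149920 to 31164324, plus strand, GRCm38), was at 363, 359 and 342 CPM in KO, against 272, 291 and 299 CPM in WT. Each KO library lay above each WT library, and the level rose 1.24-fold (log2 fold change 0.31, SE 0.06, adjusted p = 0.0321 in edgeR). The call was lost without KO replicate 1, 2 or 3 (adjusted p = 0.164, 0.187 and 0.103) and without WT replicate 2 (adjusted p = 0.0967).

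Mog, a protein of the outermost myelin surface, had 197, 185 and 191 CPM in KO, against 167, 165 and 162 CPM in WT. The groups did not overlap, and the difference of 1.16-fold did not pass (log2 fold change 0.21, SE 0.05, adjusted p = 0.0731 in edgeR). Mobp, a basic protein of compact myelin, had 1103, 1086 and 1063 CPM in KO, against 980.3, 954 and 912 CPM in WT (log2 fold change 0.19, SE 0.06, adjusted p = 0.14). Mbp had 7123, 7118 and 6856 CPM in KO, against 6200, 6264 and 6002 CPM in WT (log2 fold change 0.19, SE 0.06, adjusted p = 0.167). For Mobp and Mbp too the lowest KO library was above the highest WT library. Mog, Mobp and Mbp passed in DESeq2 (adjusted p = 0.0233, 0.0208 and 0.0119), where 1.79% of all genes were higher, and none of them in limma-voom.

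Tspan2, a tetraspanin of the myelin membrane, was at 393, 362 and 364 CPM in KO and 343, 342 and 306 CPM in WT (log2 fold change 0.17, SE 0.06, adjusted p = 0.204). Mal, a membrane raft proteolipid that takes part in protein sorting, was at 320.3, 332 and 334 CPM in KO and 319.6, 287 and 284 CPM in WT (log2 fold change 0.15, SE 0.06, adjusted p = 0.254). In Mal the lowest KO library and WT replicate 1 nearly met. Gjb1, a connexin of oligodendrocyte gap junctions, had overlapping groups, with 19.1 to 22.2 CPM in KO and 15.1 to 19.9 CPM in WT (adjusted p = 0.298).

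Mag and Cnp showed the smallest differences of the structural genes. Mag, the adhesion protein of the innermost wrap that faces the axon, had 314, 304 and 299.9 CPM in KO, against 250.4, 293 and 329 CPM in WT, so that the WT libraries enclosed the KO libraries. Its log2 fold change was 0.07 (SE 0.09, adjusted p = 0.69), with a 95% interval of -0.12 to 0.27, and it was -0.02 without WT replicate 1. Cnp, an enzyme that keeps cytoplasmic channels in myelin open, had 899, 948 and 941 CPM in KO, against 819, 877 and 938 CPM in WT. Its log2 fold change was 0.08 (SE 0.07, adjusted p = 0.555), with a 95% interval of -0.07 to 0.23.

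**Figure D1:**
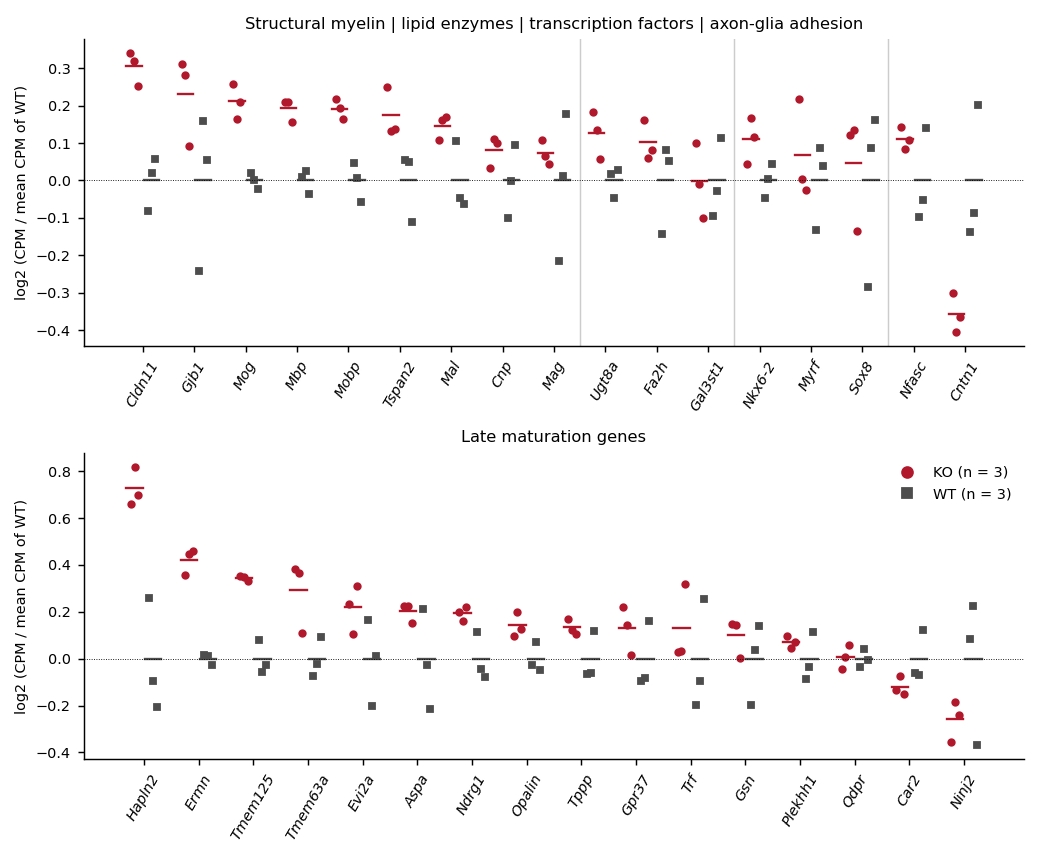
Level of each measured member in each library, as the log2 ratio of its CPM to the mean CPM of WT, with KO libraries as red circles left of WT libraries as grey squares and a bar at each group mean. Hapln2, Ermn, Tmem125 and Cldn11 stand apart between the groups, Cntn1 lies lower in KO, and Mag, Sox8 and Gal3st1 overlap.

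Among late maturation genes, 2 of 16 measured were called higher, Hapln2 and Ermn, 0 were called lower and 14 did not pass. Of all genes, 0.784% were called higher and 0.872% lower. In 14 of 16 the log2 fold change was above 0 (87.5%, against 48.5% of all genes). In 6 all KO libraries lay above all WT libraries (37.5%, against 11.5% of all genes). In 1, Car2, all lay below (6.25%, against 12.2% of all genes). Their median log2 fold change was 0.14, and their summed level was 1176 to 1193 CPM in KO, against 1014 to 1184 CPM in WT.

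Hapln2 encodes a link protein that ties hyaluronan to proteoglycans in the matrix around the nodes of Ranvier (ENSMUSG00000004894, chromosome 3, 88021750 to 88027583, minus strand, GRCm38). Its upstream stretch is the one with the MYRF letters above. It had 22.0, 24.5 and 22.5 CPM in KO, against 16.6, 13.0 and 12.1 CPM in WT, the widest gap of the members by fold. WT replicate 1 was the highest WT library and still below all KO libraries. The level rose 1.65-fold (log2 fold change 0.72, SE 0.12, adjusted p = 0.0162 in edgeR). The call was lost without KO replicate 1, 2 or 3 (adjusted p = 0.0567, 0.107 and 0.067) and without WT replicate 2 (adjusted p = 0.0867).

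Ermn encodes ermin, a cytoskeletal protein of the myelin sheath that binds actin (ENSMUSG00000026830, chromosome 2, 58045113 to 58052864, minus strand, GRCm38). It had 51.5, 54.7 and 55.2 CPM in KO, against 40.6, 40.4 and 39.5 CPM in WT. The WT libraries lay close together, and each KO library was well above the highest of them. The level rose 1.34-fold (log2 fold change 0.42, SE 0.06, adjusted p = 0.00468 in edgeR), and only the fit without KO replicate 2 missed the threshold (adjusted p = 0.0557) among those that left out 1 library. Its exons overlap Galnt5 on the opposite strand over 6.52% of their length, and with the strand columns summed the log2 fold change was also 0.42.

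Tmem125, a transmembrane protein gene of mature oligodendrocytes, was at 18.6, 18.6 and 18.4 CPM in KO, against 15.4, 14.0 and 14.3 CPM in WT. These groups lay clear of each other and the 1.27-fold difference did not pass (log2 fold change 0.34, SE 0.08, adjusted p = 0.0764 in edgeR). Tmem63a, a mechanically gated ion channel, was at 19.8, 19.6 and 16.4 CPM in KO and 14.5, 14.96 and 16.2 CPM in WT (log2 fold change 0.30, SE 0.10, adjusted p = 0.172). Here KO replicate 3 was close to WT replicate 3. Ndrg1, a cytoplasmic protein of myelinating cells, was at 25.4, 24.7 and 25.8 CPM in KO and 23.9, 21.4 and 20.9 CPM in WT (log2 fold change 0.19, SE 0.08, adjusted p = 0.244).

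The other 11 late genes had unadjusted p values above 0.05. Opalin, a sialylated membrane glycoprotein of oligodendrocytes, was at 19.4 ± 0.727 CPM in KO and 17.6 ± 0.792 CPM in WT. Aspa, which splits N-acetylaspartate and so yields acetate for lipid synthesis, was at 19.4 ± 0.556 CPM in KO and 16.9 ± 2.52 CPM in WT. Tppp, which promotes tubulin assembly, was at 280.4 ± 6.47 CPM in KO and 256 ± 19.1 CPM in WT. Evi2a, Gpr37, a receptor that slows oligodendrocyte differentiation in mice, and Plekhh1 had log2 fold changes of 0.21, 0.13 and 0.07. Qdpr, which recycles tetrahydrobiopterin, was the nearest to no difference in this group, at 0.01 with a 95% interval of -0.12 to 0.13. Ninj2, an adhesion protein, had 1.47 ± 0.0883 CPM in KO and 1.76 ± 0.358 CPM in WT, and its interval of -0.77 to 0.26 on the log2 scale was the widest of the members.

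Trf, Car2 and Gsn are made by the choroid plexus or other cells as well as by oligodendrocytes. Trf, the iron carrier transferrin, was at 242, 243 and 296 CPM in KO, against 207, 222 and 284 CPM in WT (adjusted p = 0.584), and replicate 3 was the highest library of each group. Gsn, the actin-severing protein gelsolin, was at 234, 233 and 212 CPM in KO and 184, 217 and 232 CPM in WT (adjusted p = 0.557). Car2, a carbonic anhydrase, was at 102.5, 107.0 and 101 CPM in KO, against 108, 107.3 and 122 CPM in WT (log2 fold change -0.12, adjusted p = 0.349), with the groups almost touching. The part of the lower choroid plexus level of KO, given above, in these 3 values was not tested. On the same strand, Gm20425 shares 63.5% of the exonic length of Trf, and reads from the shared length cannot be assigned to either gene with certainty.

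None of the enzymes of myelin lipids passed in edgeR, DESeq2 or limma-voom. At an unadjusted p below 0.05, 1 of 3, Ugt8a, was higher (33.3%, against 8.57% of all genes). Ugt8a, which makes galactosylceramide, was at 284, 275 and 260.0 CPM in KO, against 253, 242 and 255 CPM in WT. The groups did not overlap, and the log2 fold change of 0.13 did not pass (SE 0.06, adjusted p = 0.273 in edgeR). Fa2h, the fatty acid hydroxylase of these lipids, was at 96.0 ± 3.57 CPM in KO and 89.5 ± 7.43 CPM in WT. Gal3st1, which adds the sulfate that turns galactosylceramide into sulfatide, was at 34.6 ± 2.41 CPM in KO and 34.7 ± 2.59 CPM in WT, with a log2 fold change of 0.00 and a 95% interval of -0.17 to 0.18.

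The transcription factors of the program did not pass in edgeR, DESeq2 or limma-voom. Nkx6-2, a homeobox gene of maturing oligodendrocytes, was at 13.5, 14.7 and 14.2 CPM in KO, against 12.6, 13.1 and 13.5 CPM in WT (log2 fold change 0.11, SE 0.09, adjusted p = 0.562). KO replicate 1 and WT replicate 3 were almost equal. Myrf, the factor that switches on myelin genes, was at 64.9 ± 6.12 CPM in KO and 61.9 ± 4.82 CPM in WT (95% interval of the log2 fold change -0.10 to 0.25). Sox8 was at 34.2 ± 3.48 CPM in KO and 33.1 ± 5.22 CPM in WT (95% interval -0.20 to 0.31).

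For Nkx6-2, Qdpr, Ndrg1 and Plekhh1 the count without strand left out many reads, because these genes overlap others on the opposite strand. The strand columns summed held 3.62, 2.10, 1.495 and 1.46 times as many counts for them. Their log2 fold changes on that sum were 0.15, 0.04, 0.21 and 0.06, against 0.11, 0.01, 0.19 and 0.07 without strand. Reads of the gene and of its opposite partner cannot be told apart in that sum, since each strand column holds about as many counts as the other.

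The axon-glia adhesion genes are also expressed by neurons. Nfasc encodes neurofascin, with 1 form on the glial side of the paranode and another on axons, and gene counts do not separate them. It was at 518, 497 and 506 CPM in KO and 439, 452 and 517 CPM in WT (log2 fold change 0.11, SE 0.07, adjusted p = 0.431). Cntn1, contactin, its axonal partner at the paranode, was at 306, 285 and 293 CPM in KO, against 342, 355 and 434 CPM in WT. All KO libraries lay below all WT libraries, which held for 12.2% of all genes. Its log2 fold change of -0.36 did not pass (SE 0.09, adjusted p = 0.0724 in edgeR). Cntn1 passed in DESeq2 at an adjusted p of 0.0018, where 1.6% of all genes were lower. It also passed in edgeR once WT replicate 1 was left out, at 0.0102, where 5.24% of all genes were lower. The highest of its levels was in WT replicate 3, the library with the high Tcf7l2. Without that library its log2 fold change was -0.24 (adjusted p = 0.0686 in edgeR). Of 9 other genes of the axonal node and paranode, 0 passed in edgeR, DESeq2 or limma-voom. At an unadjusted p below 0.05, 1 was higher (11.1%, against 8.57% of all genes). The smallest p values there belonged to the potassium channel gene Kcna2 (306 ± 8.62 CPM in KO, 265 ± 33.3 CPM in WT, adjusted p = 0.224) and the spectrin gene Sptbn4 (276 ± 7.52 CPM in KO, 255 ± 8.27 CPM in WT, adjusted p = 0.302).

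**Figure D2:**
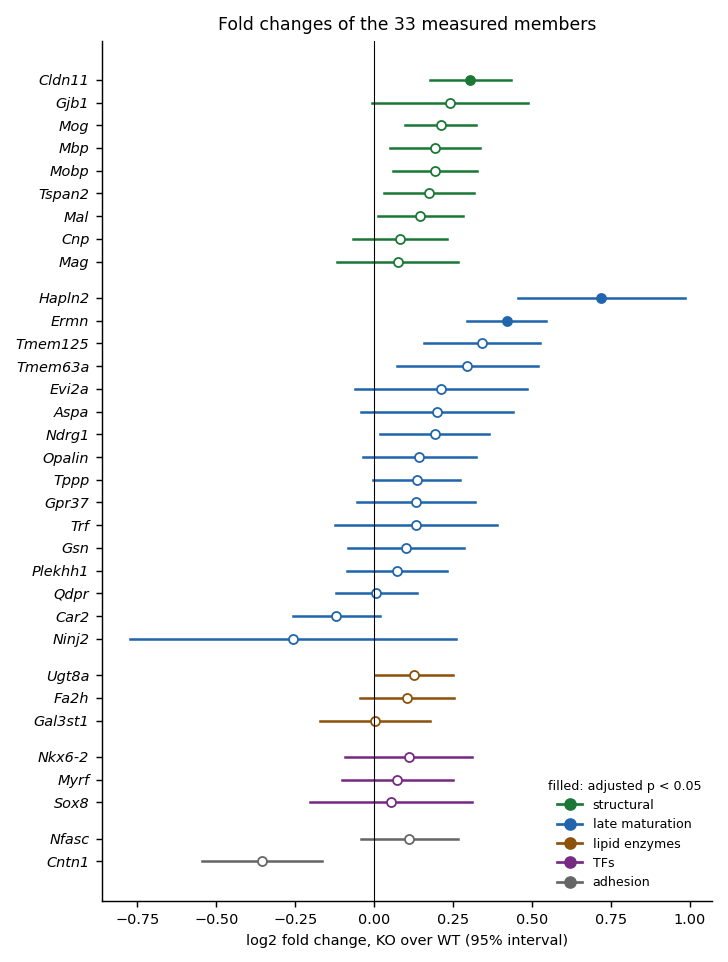
Log2 fold change of KO over WT for the 33 measured members, ordered by role, with 95% intervals from edgeR's fit. Filled points passed an adjusted p of 0.05, which were Cldn11, Hapln2 and Ermn, and all structural genes lie right of 0.

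Structural and late genes were set side by side. Their median log2 fold changes, 0.19 over 9 structural genes and 0.14 over 16 late genes, differed by 0.05. The difference of the 2 medians within single libraries, each gene taken relative to its mean over the 6 libraries, was 0.02, 0.01 and 0.01 in KO replicates 1 to 3, against 0.01, 0.06 and -0.06 in WT replicates 1 to 3. In fits with 1 library left out, the difference of the median log2 fold changes was 0.01 without KO replicate 1 and -0.01 without WT replicate 3. The order of the 2 medians thus depended on WT replicate 3. Within single libraries, the structural medians were 0.12, 0.09 and 0.06 in KO, against -0.09, -0.07 and -0.13 in WT. The late medians were 0.10, 0.07 and 0.05 in KO, against -0.10, -0.13 and -0.07 in WT. In both groups of genes each KO library was above each WT library. The 16 late genes spread more widely, with log2 fold changes between -0.26 and 0.72, against 0.07 to 0.31 for the 9 structural genes. The low end was Ninj2, the member with the lowest level, with an SE of 0.23.

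The WT animals varied more than the KO animals in these genes. The median coefficient of variation of a member was 3.71% in KO and 7.46% in WT, against 5.83% in KO and 9.98% in WT over all genes. KO replicate 1 was the highest KO library for 20 of 33 members, and KO replicate 3 the lowest for 16. WT replicate 1 was the lowest WT library for 18 members, and WT replicate 3 the highest for 16. Without WT replicate 1, 7 members were higher (Mog, Mobp, Cldn11, Mal, Ermn, Hapln2 and Tmem125) and 1 was lower (Cntn1), where 5.22% of all genes were called higher and 5.24% lower. The same fit had 26 of 33 log2 fold changes above 0. Without KO replicate 1 or 3 or WT replicate 2, Ermn alone passed in each case, where 0.212%, 0.23% and 0.309% of all genes were higher and 0.43%, 0.438% and 0.42% lower. Without KO replicate 2, 0 members passed, where 0.153% of all genes were higher and 0.289% lower, and without WT replicate 3 the 3 members passed again, where 0.925% were higher and 0.899% lower. The same 3 passed with RLE scaling (0.812% of all genes higher, 0.861% lower), limma-voom (0.844% and 0.866%) and summed strand columns (0.858% and 0.818%). With no filter on low counts 5 members were higher and 1 was lower, where 2.4% of all genes were higher and 2.45% lower.

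A list of 30 further genes of myelin and mature oligodendrocytes, none of them members, held changes in both directions. In it 3 rose, 2 fell and 25 did not pass, where 0.784% of all genes were called higher and 0.872% lower. DESeq2 called 3 higher and 3 lower, with Cd9 the third lower gene (adjusted p = 0.023), where 1.79% and 1.6% of all genes were called. With no filter on low counts 5 were higher and 5 lower, where 2.4% and 2.45% of all genes were. At an unadjusted p below 0.05, 10 were higher and 4 lower (33.3% and 13.3%, against 8.57% and 8.99% of all genes). The log2 fold change was above 0 in 21 of 30 (70%, against 48.5% of all genes). Its median was 0.05, against -0.01 for all genes. Gjc3, a connexin of myelinating glia, was at 135, 133 and 120.4 CPM in KO, against 101, 88.5 and 88.7 CPM in WT (log2 fold change 0.49, SE 0.07, adjusted p = 0.00674 in edgeR). Its groups did not overlap. It lies on chromosome 5, 6.64 Mb from Galnt17. Sequence near the knockout allele may also differ between the groups, and its part in the level of Gjc3 was not tested.

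Lpar1, a receptor for lysophosphatidic acid found on oligodendrocytes, was at 61.9, 60.3 and 59.8 CPM in KO, against 43.8, 45.5 and 48.5 CPM in WT, 1.32-fold higher (log2 fold change 0.40, SE 0.06, adjusted p = 0.00674). Sept4, a septin of the filaments that line mature myelin, was at 524, 527 and 569 CPM in KO, against 467, 408 and 420.0 CPM in WT, 1.25-fold higher (log2 fold change 0.32, SE 0.07, adjusted p = 0.0463). In both the groups were separate. Each of these calls was lost in some fits with 1 library left out. Leaving out KO replicate 2 gave an adjusted p of 0.0606 for Gjc3, 0.0594 for Lpar1 and 0.189 for Sept4. The call of Lpar1 was also lost without KO replicate 1 (0.0545), and that of Sept4 without KO replicates 1 or 3 (0.145 and 0.217) or WT replicates 2 or 3 (0.150 and 0.0654).

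The genes that fell in edgeR were Il33 and Enpp2. Il33, a nuclear cytokine kept in oligodendrocytes and astrocytes, was at 9.18, 7.99 and 7.65 CPM in KO, against 12.8, 13.3 and 13.0 CPM in WT (log2 fold change -0.65, SE 0.11, adjusted p = 0.0179). Enpp2, autotaxin, which makes the ligand of Lpar1 and is expressed by both oligodendrocytes and choroid plexus, was at 194, 260.2 and 302 CPM in KO, against 444, 562 and 796 CPM in WT (log2 fold change -1.25, SE 0.20, adjusted p = 0.0139). In each group the library with the least Enpp2 also had the lowest summed choroid plexus markers, and the library with the most had the highest. The part of choroid plexus in this difference was not tested. The call of Il33 was lost without KO replicates 2 or 3 (adjusted p = 0.116 and 0.0960) or WT replicate 2 (0.0759), and that of Enpp2 without KO replicates 1 or 2 (0.0598 and 0.0833) or WT replicate 2 (0.0674).

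Genes of precursors and newly formed oligodendrocytes leaned the other way. Of 17 measured, 0 were called in edgeR or limma-voom and 1 was lower in DESeq2, while 6 were lower at an unadjusted p below 0.05, against 8.99% of all genes. The log2 fold change was below 0 in all 17, with a median of -0.18, against 51.5% below 0 over all genes. C1ql1, a secreted C1q-like protein of precursors and of climbing fibre neurons, had the smallest p, at 17.3, 17.1 and 13.2 CPM in KO, against 21.1, 25.3 and 22.8 CPM in WT (log2 fold change -0.53, SE 0.12, adjusted p = 0.054). The groups of C1ql1 did not overlap. Itpr2, a calcium release channel of newly formed cells, was at 34.6, 37.0 and 36.1 CPM in KO, against 40.1, 41.01 and 41.4 CPM in WT (log2 fold change -0.18, SE 0.06, adjusted p = 0.147).

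This lean rested in part on 1 animal. Without WT replicate 3, the library high in Tcf7l2, the log2 fold change was below 0 in 12 of 17 precursor and newly formed genes and their median was -0.07. Without WT replicate 1 it was below 0 in 15 of 17, 5 were called lower and the median was -0.22, in a fit where 5.24% of all genes were called lower. Without WT replicate 3 the medians of the structural and late genes were 0.17 and 0.19. The precursor median by library was -0.04, -0.10 and -0.08 in KO, against -0.05, 0.01 and 0.23 in WT, so that WT replicate 1 fell within the KO range.

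**Figure D3:**
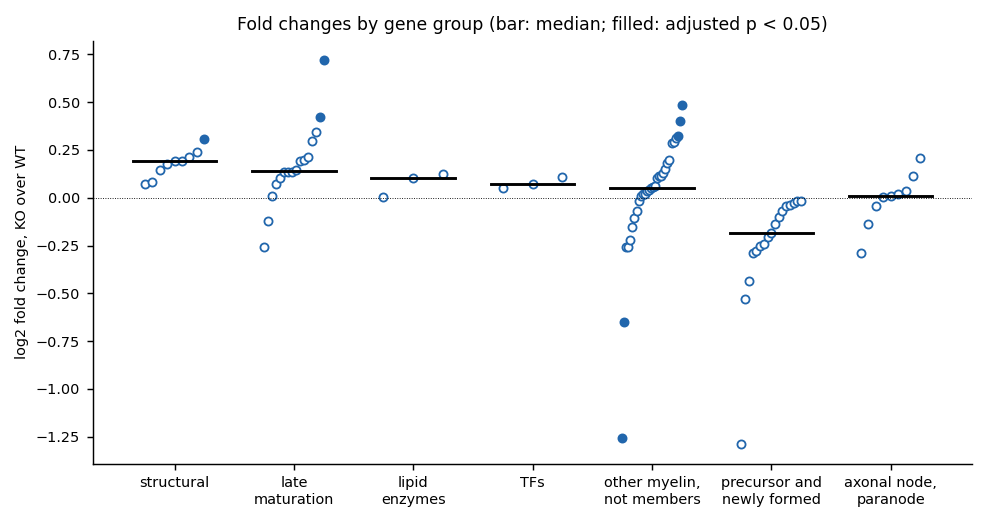
Log2 fold change of KO over WT for single genes (points) in 4 role groups of members and 3 further lists, with the median of each as a bar and filled points for genes with an adjusted p below 0.05. Structural and late medians lie at 0.19 and 0.14, the precursor and newly formed median at -0.18, and the lowest precursor point is Tcf7l2.

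**Figure D4:**
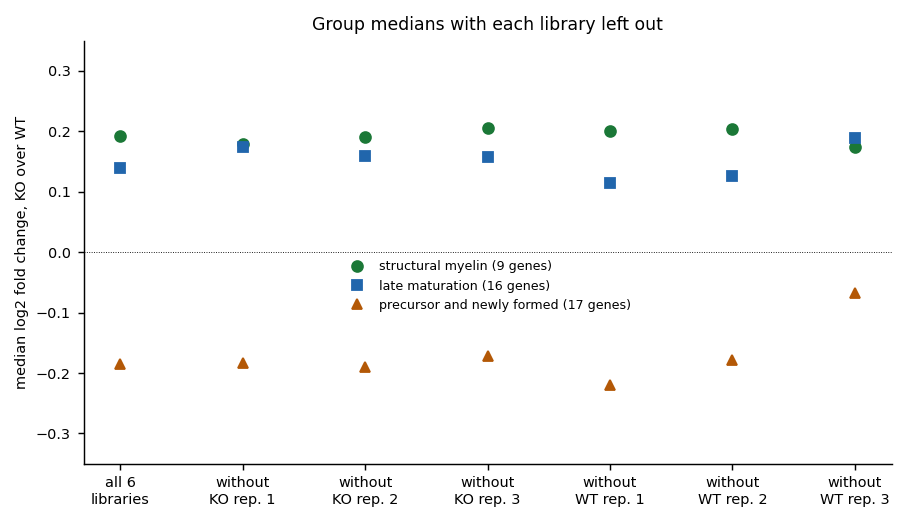
Median log2 fold change of KO over WT for structural, late, and precursor and newly formed genes, with all 6 libraries and with each left out. The structural and late medians stay between 0.11 and 0.21, and the precursor median moves to -0.07 without WT replicate 3.

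Markers of other cells were read beside these results. Schwann cell markers, which would come with nerve roots, had a summed level of 50.6 to 54.6 CPM in KO and 49.7 to 55.1 CPM in WT, over the 5 that passed the filter on low counts. Of 10 brainstem neuron markers 8 were below the filter, and in the other 2 all KO libraries lay below all WT libraries. Of these the glycine transporter gene Slc6a5, which cerebellar interneurons also express, was called lower in edgeR, and both Slc6a5 and Tph2 in DESeq2 and without WT replicate 1. Astrocyte, microglia and endothelial markers had 0 of 10, 0 of 8 and 0 of 8 called in edgeR, DESeq2 or limma-voom, and 1, 0 and 0 had an unadjusted p below 0.05. The 1 astrocyte marker was lower (10%, against 8.99% of all genes). The medians of these 3 marker lists were 0.02, -0.05 and 0.06. Of 8 meningeal fibroblast markers 0 were called in edgeR, DESeq2 or limma-voom. At an unadjusted p below 0.05, 2 were higher and 0 lower (25% higher, against 8.57% of all genes). The median of the 8 meningeal markers was 0.17, with a summed level of 217 to 245 CPM in KO, against 199.8 to 213 CPM in WT. Of 6 red blood cell genes 1, Hba-a1, whose reads are hard to tell from those of Hba-a2, was lower. Of 8 cerebellar neuron markers 1, Pcp2, was called higher in edgeR, and 3 (Pcp2, Calb1 and Pvalb, which are Purkinje cell genes, Pvalb also of interneurons) were higher at an unadjusted p below 0.05 (37.5%, against 8.57% of all genes). The same 3 were called in DESeq2 and had all KO libraries above all WT libraries, with log2 fold changes of 0.35, 0.24 and 0.22. The median of the 8 was 0.05. The part of these cell types in the members' values was not tested.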

How the data were processed

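RNA was made from whole cerebella with Trizol, treated with DNase I, and turned into libraries with TruSeq kits, and sequenced as paired ends (per the labels' protocols). What was deposited are raw read counts per gene. STAR 2.7.5a, edgeR 3.12 and mm10/GRCm38 are named in the submitters' processing notes, without the options used. The column without strand was used, and the 4 lines of reads not assigned to a gene (unmapped reads were 6.52% to 17.2%) were left out of library sizes and tests. No molecular identifiers are named, so reads may be PCR copies.

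Groups came from the strain label, and replicate numbers follow accession order as names only. Symbols and positions came from GENCODE M21 (GRCm38), which matched 55227 of 55487 identifiers. Exonic lengths are the union of all exons. All 18237 genes past edgeR's filter (minimum count 10, minimum total 15) were fitted together in edgeR 4.0.16 under R 4.3.3 (TMM scaling, two-sided quasi-likelihood tests, p-values adjusted by Benjamini-Hochberg over all of them, threshold 0.05). SEs and 95% intervals follow from the log2 fold change and its F statistic. They cover the spread between animals, moderated by other genes. DESeq2 1.42.0, limma-voom (limma 3.58.1), RLE scaling, no filter, summed strand columns and leaving out each library were alternatives. The fit was also run on simulated counts, with changes larger than those of most members, so that run does not speak to differences as small as theirs.

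The members and lists were chosen with earlier results of these data known. Lists are described by counts and medians, with no set test. Every member is named; full statistics are given for members at an unadjusted p below 0.05, for Mbp, Mag, Mog, Mobp, Cnp and Cldn11, and for the smallest p of each role group. From the pathway and stage lists, called genes or the 2 smallest p values are given. Tcf7l2 and Tph2 were picked after their values were seen.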

Additional observations from a re-analysis of the deposited data

How the results depend on the processing

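The 3 calls among the members were the same genes with RLE scaling, limma-voom and summed strand columns. DESeq2 called 6 members higher and 1 lower, and no filter on low counts called 5 and 1. Leaving out 1 library gave 0 to 7 members higher and 0 to 1 lower, with 0 higher without KO replicate 2 and 7 without WT replicate 1. Over these fits with 1 library left out, the median log2 fold change was 0.10 to 0.16 for members, 0.17 to 0.21 for structural genes and 0.11 to 0.19 for late genes, and structural minus late ran from -0.014 (without WT replicate 3) to 0.087 (without WT replicate 1). Of 462 values for 42 named genes under the alternatives, 414 kept their direction and side of the threshold, 23 lost the call, 17 gained one and 8 changed sign. Those 8 had no call in any fit. With 1 library left out, their log2 fold changes ran from -0.053 to 0.067 for Gal3st1 (below 0 without KO replicate 1, WT replicate 1 or WT replicate 2), from -0.019 to 0.033 for Qdpr (KO replicate 3, WT replicate 1), from -0.0090 to 0.121 for Myrf (KO replicate 1), from -0.025 to 0.175 for Mag and from -0.077 to 0.149 for Sox8 (both WT replicate 1). Fits without a library have fewer animals; otherwise the cause was not tested. Over all genes the calls were 143 higher and 159 lower, against 294 and 263 in DESeq2 and 803 and 820 with no filter. No paired analysis was possible because KO and WT animals have no replicate numbers in common in the labels.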
